A study of Ericerus pela with 2 samples.

Results

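Titin and its relatives are the giant proteins of the muscle sarcomere. In the unigene tables of the Chinese white wax scale insect, Ericerus pela, they were found as the unigenes whose database match named titin, projectin, twitchin, obscurin, kettin, sallimus or nebulin, ignoring case. A unigene is an assembled transcript fragment, named here as in the tables. This gave 66 of 120710 unigenes, and all 66 had reads in both libraries and passed the filter on low values used below. Titin was named in 55 matches, sallimus in 5, kettin in 3, projectin in 2 and nebulin in 1, while twitchin and obscurin were named in none. The choice used only the text of the match and no measured value, although earlier results of these data were known when it was made.

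Except in nebulin, repeated immunoglobulin and fibronectin type III domains make up most of these proteins, which run as molecular springs and rulers along the filaments. In mammals a single titin protein spans from the Z-disc, where thin filaments are anchored, to the middle of the sarcomere. Insects divide these tasks: in Drosophila the sallimus gene encodes a spring near the Z-disc and, as a shorter product, kettin, which binds actin there. Projectin, a kinase-bearing protein, links the Z-disc to the thick filaments in the flight muscle of Drosophila. Twitchin is its relative in nematodes, obscurin is a vertebrate giant protein whose invertebrate relative is called Unc-89, and nebulin lies along the thin filament of vertebrate muscle. The word titin in the match of an insect fragment therefore does not tell which insect gene the fragment comes from.

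The study sequenced RNA of wild-type males, 1 library of prepupae and 1 of pupae, which are successive stages before the winged adult. Per the labels, whole insects were used, while the design note names the retina. The age label reads 90 for prepupae and pupae alike without saying of what unit, and whether animals were pooled is not stated. The libraries had uniquely assigned reads on 106752 and 94524 unigenes, on average 20.4 and 19.5 reads on each. The 66 fragments took 8067 reads in prepupae (0.370% of the library) and 14549 in pupae (0.790%). Reads scaled to the library total are given as RPM, where 1 read is worth 0.458 RPM in prepupae and 0.543 RPM in pupae. There was no replicate, so each value below compares 1 library with 1 library, and no test across samples or p-value can be given. A fold is the ratio of reads scaled to the library totals, pupae over prepupae, with an exact conditional binomial 95% interval that covers counting error only. In whole insects, more muscle cells and more RNA per cell cannot be told apart.

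Markers were checked against the labelled whole body. Of 6 muscle markers, 4 had reads, with a summed 448 RPM in prepupae and 500 in pupae, while troponin I and troponin T were named in no match. The muscle sum held markers of opposite direction. Paramyosin, with 944 of its 977 prepupal reads, went from 433 to 269 RPM, while muscle myosin heavy chain, tropomyosin and troponin C together rested on 33 and 425 reads and were each higher in pupae. Of 4 fat body markers, vitellogenin and apolipophorin had reads (541 and 282 RPM summed), while hexamerin and storage protein were named in no match. All 4 nerve markers had reads, 412 and 643 RPM in sum. All 3 germ cell markers had reads, 96.7 and 27.7 RPM in sum. Eye keywords, some of them matching proteins outside the eye, summed to 315 and 1529 RPM, and norpA was named in no match. Reads matching markers of tissues outside the retina were thus in both libraries. The marker sums of nerve, eye and muscle, like that of the giant proteins, were higher in pupae, although syntaxin of the nerve list (279 and 196 RPM) and TRP of the eye list (86.2 and 18.5 RPM) were lower. Their part in the results was not tested.

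More giant protein RNA was read in pupae than in prepupae. A fragment was called higher or lower where its RPKM (reads scaled to fragment length and library total), with 1 added, differed at least 2-fold between the libraries. By this rule 23 of the 66 fragments were higher in pupae, none was lower and 43 were neither. Of the 113976 unigenes that passed a minimum mean RPKM of 1, 23.0% were called higher and 39.4% lower. The split of these calls, 26264 higher against 44893 lower, was 34176 against 35653 when ratios were centred on their median. Among unigenes with at least 50 reads these shares were 19.8% and 36.2%, and 22 of the 64 fragments of that depth were called higher and none lower. On the log2(RPKM + 1) scale the fragments had a median ratio of 0.58, with quartiles at 0.33 and 1.40, beside −0.49 over all unigenes of the filter. The summed reads of the 66 fragments were 2.14-fold higher in pupae (2.08 to 2.20).

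**Figure D1:**
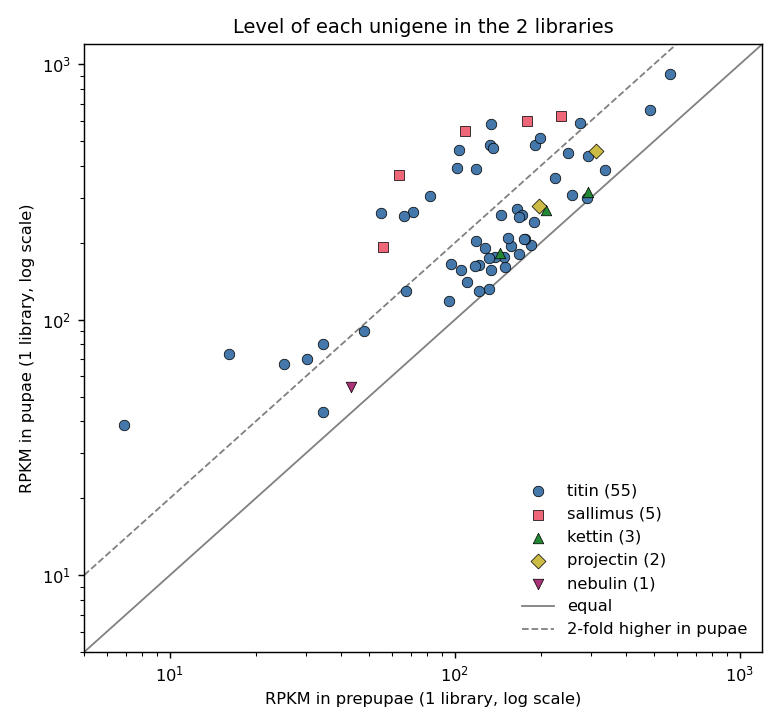
RPKM of each of the 66 unigenes in prepupae (x axis) and in pupae (y axis), both on log scales, with 1 point per unigene, marked by the protein named in its match; the solid line is equality and the dashed line 2-fold higher in pupae. All 5 sallimus points lie above the dashed line, the kettin, projectin and nebulin points lie between the lines, and titin points lie on both sides of the dashed line.

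Per length, projectin was highest among the proteins in prepupae and sallimus in pupae. In prepupae the reads of all fragments of a protein over their summed length gave 243 RPKM for projectin, 216 for kettin, 144 for sallimus, 135 for titin and 43.3 for nebulin. In pupae the order was sallimus at 496 RPKM, projectin at 351, titin at 278, kettin at 254 and nebulin at 54.7. Single titin fragments ranged from 6.89 to 568 RPKM in prepupae and from 38.8 to 917 in pupae. The fragments of projectin, kettin and sallimus lay within the range of titin fragments in each library, so none of these neighbours in the order stood apart beyond the spread of fragments. The nebulin value rested on 1 fragment.

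Sallimus, the spring of the insect I band, was the giant protein with the largest summed change of those named. Its 5 fragments went from 787 reads to 2293, a 3.45-fold difference (3.18 to 3.75). All 5 were called higher, beside 23.0% of all tested unigenes. The 5 fragments matched a pair of honey bee protein records. By E-value, a measure of how unlikely such a match is by chance (smaller is stronger), 3 of these matches were weaker. They were those of Unigene152714_FOB (4.1e-08), Unigene26073_FOB (8.5e-07) and Unigene94211_FOB (7.5e-07), beside 1.1e-41 for Unigene145667_FOB and 9.1e-56 for Unigene150928_FOB. The 3 fragments of the first record had similar folds. In the first record, Unigene152714_FOB had 361 and 811 reads, or 236 and 628 RPKM, 2.66-fold higher (2.35 to 3.02). In the same record, Unigene145667_FOB had 190 and 537 reads, or 178 and 598 RPKM (3.35-fold, 2.83 to 3.97), and Unigene26073_FOB had 58 and 169 reads, or 56.0 and 193 RPKM (3.45-fold, 2.55 to 4.74). These 3 intervals overlapped each other.

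The second honey bee record had fragments with larger folds. For Unigene150928_FOB the reads were 147 and 625, or 108 and 547 RPKM, 5.04-fold higher (4.20 to 6.07). Unigene94211_FOB, the sallimus fragment with the fewest reads, had 31 and 151, or 63.7 and 368 RPKM (5.77-fold, 3.90 to 8.80). Summed over fragments, the first record was 2.95-fold higher (2.69 to 3.25) and the second 5.17-fold (4.39 to 6.12), and these intervals did not overlap. The sallimus fragments therefore shared a direction but not 1 size of change. Without Unigene152714_FOB, the one with the most reads, the sum was 4.12-fold higher.

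Kettin, in Drosophila a shorter product of the sallimus gene, differed little between the libraries as deposited. Its 3 fragments all matched 1 silkworm protein and went from 259 reads to 257, 1.18-fold after scaling (0.986 to 1.40). Equality lies inside that interval, although scaling by TMM, which assumes that most unigenes do not change, moves the fold to 1.55. Unigene74370_FOB had 125 and 113 reads, or 294 and 315 RPKM (1.07-fold, 0.823 to 1.39). Unigene76544_FOB had 62 and 66 reads, or 144 and 182 RPKM (1.26-fold, 0.879 to 1.81). Unigene45348_FOB had 72 and 78 reads, or 209 and 268 RPKM (1.28-fold, 0.920 to 1.79). None was called higher or lower, and the interval of the kettin sum lies below that of every sallimus fragment. Whether the kettin and sallimus fragments of this insect come from 1 gene cannot be told from the tables.

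Projectin and nebulin were also short of the rule. The 2 projectin fragments matched 1 crayfish protein and held 222 and 270 reads, 1.44-fold (1.20 to 1.73). Unigene108139_FOB had 108 and 129 reads, or 197 and 279 RPKM, and Unigene52010_FOB 114 and 141 reads, or 313 and 459 RPKM, with folds of 1.42 (1.09 to 1.85) and 1.47 (1.14 to 1.89). The pair moved almost alike, 0.05 apart on the log2 scale. The single nebulin fragment, Unigene129239_FOB, matched a lancelet protein and had 31 and 33 reads, or 43.3 and 54.7 RPKM (1.26-fold, 0.749 to 2.13). Equality lies inside this interval, and at this depth a change smaller than its bounds was not detectable.

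The titin fragments spread widely in their change. As a sum they held 6768 reads in prepupae and 11696 in pupae. Of the 55, 18 were called higher, 37 were neither and none was lower, beside 23.0% higher and 39.4% lower over all tested unigenes. The log2 ratio of scaled reads ran from −0.0046 to 2.49, with an SD across the 53 fragments of at least 50 reads of 0.68, while the median counting error of 1 such fragment was 0.20. For 13 of these 53 the counting interval lay wholly above the fold of the titin sum, 2.05, for 26 wholly below it, and for 14 it included the sum. The fold of the sum thus described a minority of its fragments. The 55 fragments covered 22892 bases in all, with single lengths of 151 to 1291 bases.

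**Figure D2:**
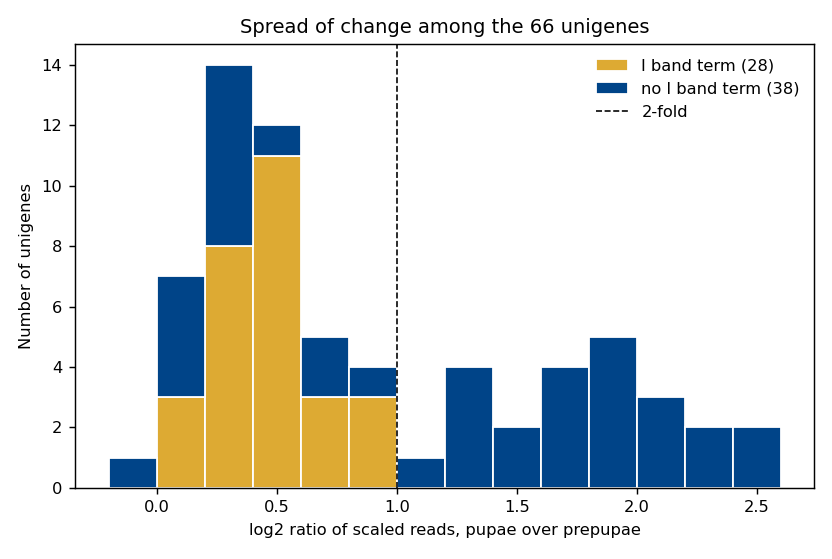
Number of unigenes (y axis) in steps of 0.2 of the log2 ratio of scaled reads, pupae over prepupae (x axis), for the 66 unigenes, stacked by whether the deposited Gene Ontology terms include the I band; the dashed line marks 2-fold. All 28 unigenes with the term lie below the line, and the 38 without it lie on both sides, 23 of them above.

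By the rule for naming, the 5 titin fragments with the most reads were these. Unigene156016_FOB went from 299 reads to 1100, or 134 to 585 RPKM (4.36-fold, 3.83 to 4.97). Unigene155531_FOB had 395 and 840 reads, or 192 and 483 RPKM (2.52-fold, 2.23 to 2.85). Unigene156897_FOB, at 1291 bases the longest member, had 286 and 933 reads, or 102 and 393 RPKM (3.87-fold, 3.38 to 4.43). Each of these 3 was called higher. Unigene146830_FOB had 304 and 553 reads, or 274 and 590 RPKM (2.16-fold, 1.87 to 2.49), and was called higher as well. The exception was Unigene153152_FOB, with 408 and 411 reads, or 258 and 308 RPKM (1.19-fold, 1.04 to 1.37).

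The largest titin ratios among fragments of at least 50 reads belonged to 4 fragments, of which Unigene156016_FOB is given above. Unigene148618_FOB had 66 and 266 reads, or 55.0 and 263 RPKM (4.78-fold, 3.64 to 6.35). Unigene136750_FOB had 86 and 325 reads, or 103 and 463 RPKM (4.48-fold, 3.52 to 5.75). Unigene126202_FOB was shallow, with 11 and 42 reads, or 16.2 and 73.1 RPKM (4.53-fold, 2.29 to 9.75). Their intervals overlapped each other, so these fragments cannot be ordered. The matches of Unigene148618_FOB (E-value 1.7e-06) and Unigene126202_FOB (4.8e-06) were weak beside those of Unigene136750_FOB (9.9e-23) and Unigene156016_FOB (9.1e-33).

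At the other end, the 4 smallest titin ratios were close to equality. Unigene41493_FOB, which matched a titin-like protein of a darter fish, had 44 and 37 reads, or 132 and 131 RPKM (0.997-fold, 0.626 to 1.58). Unigene39241_FOB had 96 and 83 reads, or 291 and 299 RPKM (1.02-fold, 0.755 to 1.39). The intervals of both include no change. The same held for Unigene142486_FOB, with 177 and 159 reads, or 184 and 196 RPKM (1.06-fold, 0.854 to 1.33), and for Unigene43615_FOB, with 41 and 37 reads, or 121 and 130 RPKM (1.07-fold, 0.667 to 1.71).

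Much of the spread lay between the protein records that the fragments matched. The 66 fragments matched 19 records from 11 species, and 14 records were shared by 2 or more fragments. Over fragments of at least 50 reads the SD of the log2 ratio was 0.72 in all and 0.48 within records. All 5 fragments of the pea aphid record, predicted there to resemble the novex-3 isoform of titin, were called higher, and their sum was 4.14-fold higher (3.81 to 4.51), from 721 to 2519 reads. All 3 fragments of one body louse record (2.70-fold, 2.36 to 3.08) and both fragments of one carpenter ant record (2.88-fold, 2.61 to 3.18) were called higher. So were both fragments of one jumping ant record (2.42-fold, 2.14 to 2.73) and the only fragment of the nematode titin record, Unigene156719_FOB, with 66 and 149 reads (2.68-fold, 1.99 to 3.63). The share over all tested unigenes was 23.0%.

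Other records held fragments of small change throughout. The body louse record with the most fragments had 15, from 1325 to 1619 reads in sum (1.45-fold, 1.35 to 1.56), and none was called. Their log2 ratios of RPKM ran from 0.11 to 0.94, and for all 14 with at least 50 reads the counting interval included the fold of the record's sum. The jumping ant record with the most fragments had 9, from 1259 to 1481 reads (1.39-fold, 1.29 to 1.50), none of them called and all 9 intervals including the sum. In both records the SD of the log2 ratio across fragments, 0.26 and 0.18, was near the median counting error of a fragment of 0.22. Fragments of these records thus differed from each other by little more than counting error. A single fragment each stood for another body louse record (160 and 230 reads, 1.70-fold) and another jumping ant record (205 and 259 reads, 1.50-fold), neither called. The shares over all tested unigenes were 23.0% higher and 39.4% lower.

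In 3 records, called and uncalled fragments had separate intervals. One jumping ant record had 3 fragments between 1.14-fold and 1.19-fold, among them Unigene153152_FOB, and 2 fragments at 3.71-fold and 3.83-fold, singled out after their values were seen. The highest upper bound of the first 3 was 1.47 and the lowest lower bound of the other 2 was 2.91. The 2 held 148 and 463 reads, and 70 and 226. In the carpenter ant record with 6 fragments, 5 lay between 1.02-fold and 1.64-fold, while Unigene126202_FOB was at 4.53-fold. Its interval cleared those of the other 5 narrowly, with bounds of 2.29 and 2.27. Its match was also the weakest of the 6, with an E-value of 4.8e-06. In the Culex mosquito record Unigene136750_FOB was at 4.48-fold, and the only other fragment, with 68 and 71 reads, at 1.24-fold (0.875 to 1.75). In a further jumping ant record 1 fragment was called and 1 was not, at 2.34-fold and 1.88-fold, with overlapping intervals.

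**Figure D3:**
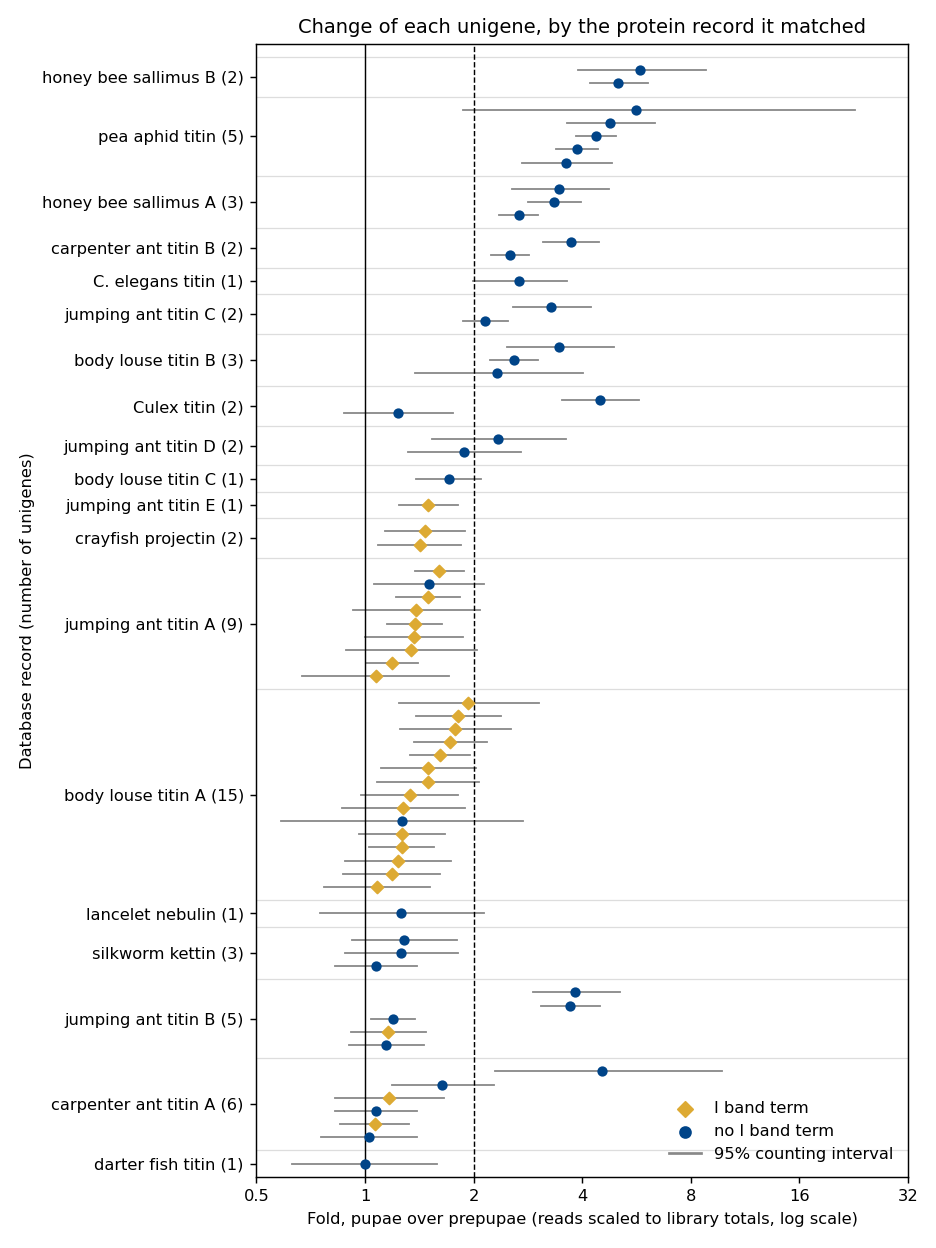
Fold of scaled reads, pupae over prepupae (x axis, log scale), for each of the 66 unigenes, grouped by the protein record it matched and ordered by the record's median; bars are 95% counting intervals, diamonds have the Gene Ontology term I band, the solid line is equality and the dashed line 2-fold. Jumping ant record B (Harpegnathos saltator), carpenter ant record A (Camponotus floridanus) and the Culex record hold points on both sides of the dashed line with separate intervals, and jumping ant record D holds points on both sides with overlapping ones.

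The deposited Gene Ontology terms, which the choice of fragments did not use, largely followed the matched records. They were assigned by the authors from sources not given here, and the grouping was chosen after the ratios had been seen. The I band, the part of the sarcomere that holds thin filaments only, was a term of 28 fragments, 26 of them named titin and 2 projectin. Most of the 28 matched the largest body louse record or the largest jumping ant record, in which no fragment was called. The split by this term is therefore in large part the split by record given above. None of the 28 was called higher, although TMM scaling called 6 of them and centring on the overall median 11, and their reads went from 3329 to 3908 in sum (1.39-fold, 1.33 to 1.46). The SD of their log2 ratio was 0.23 beside a median counting error of 0.21, and for 27 of 28 the interval included the fold of the sum. Of all tested unigenes, 23.0% were called higher and 39.4% lower. The 38 fragments without the term included all 5 of sallimus and all 3 of kettin, so the term does not mark the I band proteins as a whole. Of these 38 fragments, 23 were called higher, with 4738 and 10641 reads in sum (2.66-fold, 2.57 to 2.76). Their SD was 0.79, and with the same scalings 26 and 27 of them were called higher.

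Kinase activity was a term of 22 fragments, all but 1 of which also had the I band term. As deposited, none of these 22 was called higher (1.42-fold in sum, 1.35 to 1.51), beside 23 of the 44 without it (2.40-fold, 2.33 to 2.48). The share over all tested unigenes was 23.0%. The 22 matched the crayfish projectin, the largest body louse record and a pair of jumping ant records. The pooled level of the fragments with the I band term was 175 RPKM in prepupae and 244 in pupae, and that of the fragments without it 121 and 321. The order of the groups by level was therefore opposite in the 2 stages.

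The call also went with the length and the strength of the match. Fragments called higher had a median length of 488 bases, those not called 239. The median −log10 of the E-value, a measure of how unlikely such a match is by chance, was 10.1 in the first and 25.8 in the second. Of the 14 fragments with −log10 E-values below 10, 11 were called higher, while 12 of the other 52 were. The share over all tested unigenes was 23.0%. The 52 pool fragments with and without the I band term, whose calls differed as given at the end of this paragraph. Across the 66 fragments, which share both libraries and often a record, Spearman's rho with the log2 ratio was −0.32 for the −log10 E-value and 0.42 for length. Of the 19 fragments of at least 500 bases 11 were called higher, beside 2383 of all 15001 tested unigenes of that length. Of the 19 shorter than 200 bases only Unigene48852_FOB, with 48 and 140 reads, was. Among the 52 fragments with E-values of at most 1e-10, none of the 27 with the I band term was called higher and 12 of the 25 without it were.

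**Figure D4:**
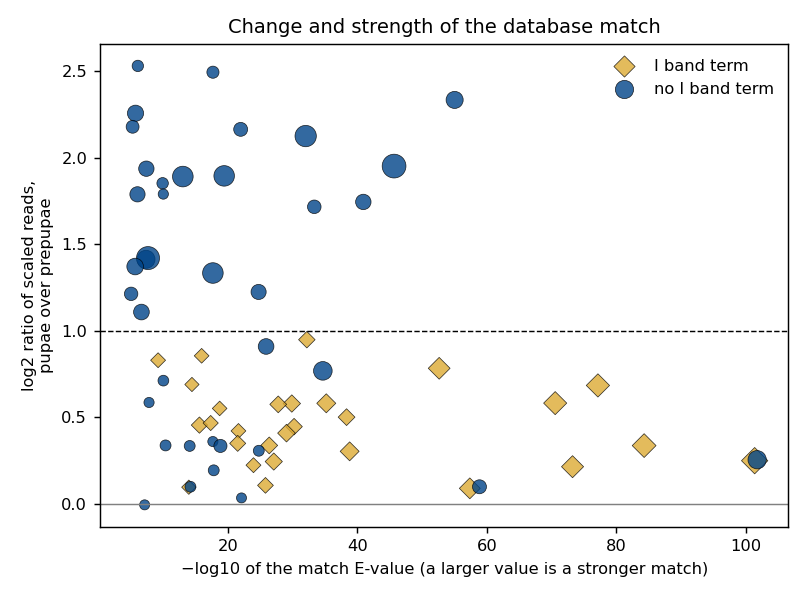
Log2 ratio of scaled reads, pupae over prepupae (y axis), against −log10 of the E-value of the database match (x axis) for each of the 66 unigenes; larger symbols are longer unigenes, diamonds have the I band term and the dashed line is 2-fold. Of the 23 points above the dashed line, 11 have −log10 E-values below 10 and 3 have values above 40.

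Coverage of the fragments by reads was high in both libraries. The median share of a fragment's length covered was 96.9% in prepupae and 98.4% in pupae. The shallowest fragment, Unigene114162_FOB of the pea aphid record, had 4 reads in prepupae and 19 in pupae and went from 41.0% to 85.3% covered.

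The other giant proteins of invertebrate muscle, listed under names that the choice of fragments did not include, also had more reads in pupae. Unc-89, the invertebrate relative of obscurin at the middle of the sarcomere, had 31 fragments. Where 23.0% of all tested unigenes were called higher, all 31 of these were. Their reads went from 1346 to 10978 (9.67-fold, 9.13 to 10.2), and the interval lies above those of titin and of sallimus. The most read of them, Unigene153081_FOB, had 247 and 1841 reads, or 157 and 1385 RPKM (8.84-fold, 7.73 to 10.1). Per length Unc-89 was at 51.9 RPKM in prepupae, below titin at 135, and at 501 RPKM in pupae, above titin at 278. Fragments of Unc-89 also spread, with log2 ratios of RPKM from 1.04 to 5.09.

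Myosin light chain kinase, a kinase of the same domain family, had 13 of 14 fragments called higher (3.19-fold in sum, 2.99 to 3.41). Its most read fragment, Unigene73296_FOB, had 193 and 425 reads, or 456 and 1190 RPKM (2.61-fold, 2.20 to 3.11). Stretchin, a giant protein of the same Drosophila gene as a light chain kinase, had 4 of 9 called higher and 5 neither (2.83-fold in sum, 2.49 to 3.23). Unigene137316_FOB, its most read fragment, had 73 and 294 reads, or 86.7 and 414 RPKM (4.77-fold, 3.68 to 6.26). No fragment of these 3 proteins was called lower, while over all tested unigenes 23.0% were called higher and 39.4% lower. The names unc-22 and bent, gene names of twitchin and projectin, were in no match.

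Proteins of the thick filament, along which the giant proteins run, differed in direction. Muscle myosin heavy chain, the motor, rested on 1 fragment with 8 and 111 reads (16.4-fold, 8.06 to 39.0). Myosin light chains, which sit on the neck of the motor, had 4 of 5 fragments called higher, beside 23.0% of all tested unigenes. Light chain reads were 6.92-fold higher in sum (6.14 to 7.83). The most read light chain fragment, Unigene115288_FOB, had 23 and 784 reads, or 39.0 and 1577 RPKM. Paramyosin, the core of invertebrate thick filaments, had 5 of 11 fragments called lower, 1 higher from 0 reads to 1, and 5 neither, beside the 39.4% of all tested unigenes that were called lower. Its reads went from 944 to 495 in sum (0.622-fold, 0.556 to 0.694), opposite in direction to titin, and Unigene150839_FOB, its most read fragment, had 209 and 177. Flightin and myofilin were named in no match.

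On the thin filament, tropomyosin and troponin C, which make contraction depend on calcium, had more reads in pupae in sum. The 2 troponin C fragments had 17 and 69 reads (4.81-fold, 2.80 to 8.73), 13 and 52 of them on Unigene144142_FOB. Tropomyosin had 8 and 245 reads over 4 fragments (36.3-fold, 18.1 to 85.0). Of these fragments 2 were called higher and 2 lower, beside 23.0% and 39.4% of all tested unigenes. The higher ones had 0 reads in prepupae and 206 and 39 in pupae, and the lower ones had 6 and 2 in prepupae and 0 in pupae. With 0 counted as 3 reads in that library, Unigene98349_FOB, the most read, was at least 81.4-fold higher. The only match to muscle-specific actin had 1 read in prepupae and 0 in pupae, too few to compare, and tropomodulin was in no match.

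At the Z-disc, where sallimus and kettin are anchored, alpha-actinin, which cross-links thin filaments, was short of the rule. Its 2 fragments had 105 and 151 reads (1.70-fold, 1.32 to 2.21), 56 and 80 of them on Unigene114284_FOB. Filamin, an actin cross-linker, had 4 of 6 fragments called higher (7.72-fold in sum, 6.88 to 8.68), led by Unigene153359_FOB with 196 and 1091 reads. Muscle LIM protein, a Z-disc adaptor, had 3 of 5 called higher (2.09-fold in sum, 1.87 to 2.34), and its most read fragment, Unigene48139_FOB, had 265 and 361. LIM domain-binding protein 3, related to the Z-disc protein Zasp, had 0 and 57 reads on its only fragment, Unigene128213_FOB. That is at least 22.5-fold higher with 0 counted as 3 reads. F-actin-capping protein, which closes the end of the thin filament, had 5 of 8 fragments called lower and 1 higher (0.561-fold in sum, 0.477 to 0.658), 200 and 85 reads of them on Unigene136123_FOB. Of the 5 lower calls, 3 rested on 7, 2 and 1 reads in prepupae against 1, 0 and 0 in pupae, with intervals that include equality. The shares over all tested unigenes were 23.0% higher and 39.4% lower.

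In all, 123 of 124 fragments of the sarcomere lists, calcium and assembly proteins included, passed the filter, and 69 of them were called higher, 15 lower and 39 neither. Of all tested unigenes, 23.0% were called higher and 39.4% lower. The median log2 ratio of the listed fragments was 1.58 beside 0.58 for the titin group and −0.49 over all unigenes. The lists differed: Unc-89, stretchin and light chain kinase held 48 of the 69 higher calls on 54 fragments, with a median of 2.44. Medians were 2.19 for the thin filament, 0.72 for the Z-disc, 0.55 for the thick filament, −0.28 for assembly and −0.31 for calcium. The thin filament median rested on 6 fragments, from −2.66 to 8.92. The calcium list held 17 fragments of the ryanodine receptor and 2 of the calcium pump, and its summed reads were 3.90-fold higher (3.61 to 4.23). TMM scaling moves log2 ratios by about 0.40, more than the assembly and calcium medians lie below equality. The lists nearest to titin in the fold of their sums were muscle LIM protein, muscleblind, a splicing regulator of muscle genes (1.83-fold, 1.04 to 3.29, on 1 fragment), and alpha-actinin. With 2 libraries this nearness is a single difference per protein. No direction of a sum given above changed with TMM scaling or centring.

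**Figure D5:**
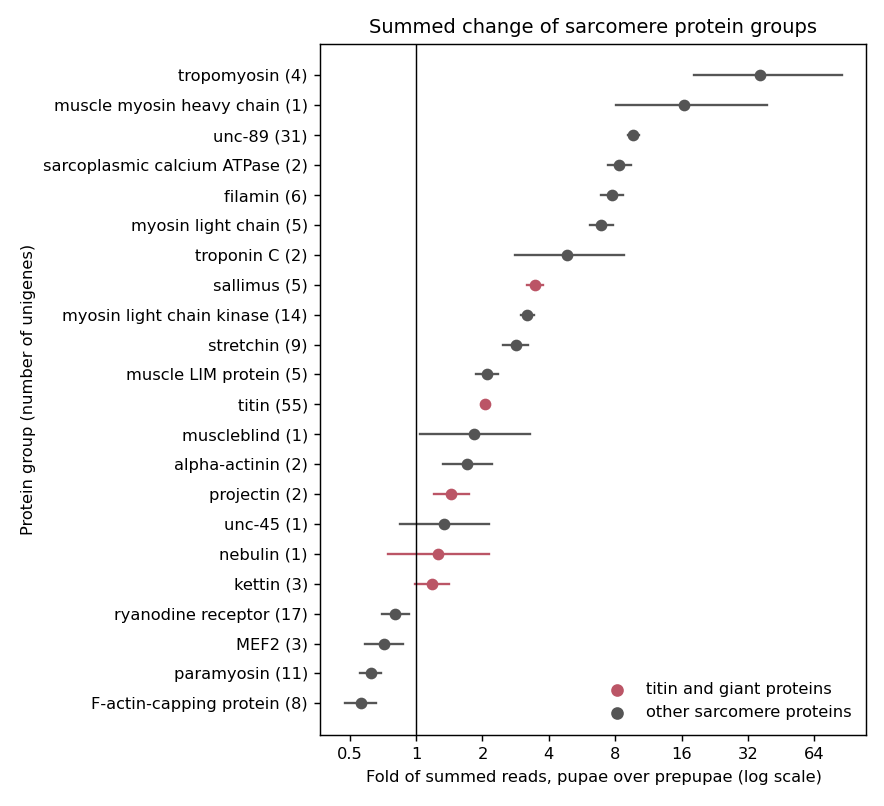
Fold of summed reads, pupae over prepupae (x axis, log scale), for each protein group with reads in both libraries (y axis, with its number of unigenes), and its 95% counting interval; red points are titin and the other giant proteins chosen by name, gray points the other sarcomere lists. Titin lies at 2.05 and sallimus at 3.45, below unc-89 at 9.67, while paramyosin at 0.622 and F-actin-capping protein at 0.561 lie left of the line of equality.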

How the data were processed

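Each deposited table gives, per the file headers, the count of reads assigned uniquely to each unigene, its length, the percent of its length covered, an RPKM value, Gene Ontology terms and the best protein match. The authors' assembler and aligner: not given in the sources used here. All deposited counts were whole and added up to the header totals, and recomputing RPKM from them gave the deposited value in 100% of rows (relative tolerance 1e-06). Reads shared by several unigenes were not counted, so near-identical copies of repeated domains may be undercounted.

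Unigene names joined the tables, with 0 for an absent unigene. Calls used log2(RPKM + 1), a mean RPKM of at least 1 and a 2-fold rule, which understates changes at low levels. Folds of named unigenes and sums use counts scaled to the totals. A match naming several proteins went to the first of projectin, twitchin, obscurin, kettin, sallimus, nebulin and titin. Named were, per protein, the 5 fragments with the most reads, the 4 highest and 4 lowest ratios at 50 or more reads, all members of proteins with up to 5, and the most read fragment of each other list. Members and lists were chosen with earlier results of these data known, and the groupings by matched record, Gene Ontology term, length and E-value after the values were seen. The calls and intervals were tested on simulated counts of well-read unigenes with counting error only. That test covers neither the spread between animals nor shallow fragments. TMM scaling used edgeR 4.0.16; the rest used Python 3.11.15 with SciPy 1.17.1. No sequence was used.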

Additional observations from a re-analysis of the deposited data

How the results depend on the processing

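Pseudocounts of 0.1 and 5 and the filters on low values left 22 or 23 members and 17 or 18 titin fragments called higher, and under every alternative run none was called lower. The median of all filtered unigenes, −0.49, is −0.13 after TMM scaling. TMM gave member and titin medians of 0.98 and 0.98, with 32 and 27 called higher, and folds of 2.70 for titin, 1.90 for projectin, 1.55 for kettin and 4.54 for sallimus. Centring on the median of all filtered unigenes gave medians of 1.07 and 1.07, with 38 and 32 called higher, and folds of 2.88, 2.03, 1.65 and 4.85. Fragments with the I band term called higher numbered 0 as deposited, 6 with TMM and 11 after centring, those without it 23, 26 and 27. Of all unigene calls, 26264 were higher and 44893 lower as deposited, 32178 and 38060 with TMM, and 34176 and 35653 after centring; they were 14515 and 25897 at a pseudocount of 5, 14049 and 25063 at a mean RPKM of at least 5, 4485 and 8217 at 50 or more reads, and 2383 and 5649 at 500 bases or more, where fewer unigenes are tested.

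Only 19 members and 17 titin fragments had 500 bases or more. Of these 11 and 9 were called higher, with medians of 1.33 and 1.11 and a titin fold of 2.36. With E-values of at most 1e-10, chosen after seeing the data, 12 members and 10 titin fragments were called higher and the titin fold was 1.95. Without its most read fragment the titin fold was 1.94 and the sallimus fold 4.12. The spread among fragments stayed within 1.5 times under the alternatives run. Of the 23 named members, 1 changed its call, under centring. Twitchin and obscurin gave no values, nor did projectin, kettin and nebulin at 500 bases. No paired analysis was possible because each stage has 1 library. Fragments under 50 reads have wide counting intervals, and no alternative measures the spread between animals.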

Other observations

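The sarcoplasmic calcium pump, which refills the calcium store of the muscle fibre, had both fragments called higher, with 337 and 2375 reads in sum (8.35-fold, 7.45 to 9.39). Unigene108937_FOB, the more read of them, had 169 and 1322 reads, or 306 and 2838 RPKM. The ryanodine receptor, the giant channel that releases calcium from the store, had none of 17 fragments called higher and 3 called lower, with 484 and 329 reads in sum (0.806-fold, 0.698 to 0.929, but 1.06-fold with TMM scaling). Over all tested unigenes 23.0% were called higher and 39.4% lower. Its most read fragment, Unigene156520_FOB, had 98 and 68 reads.

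Factors of muscle assembly were short of the rule in all 5 fragments. The myosin chaperone unc-45 had 38 and 43 reads (1.34-fold, 0.847 to 2.13) and muscleblind 22 and 34. MEF2, a transcription factor of muscle genes, had 263 and 159 reads over 3 fragments (0.717-fold, 0.585 to 0.876, but 1.01-fold after centring), most of them, 151 and 89, on Unigene156525_FOB.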
